A study of Mus musculus with 3 samples.

Results

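The proteasome genes of the mouse brain were followed across 3 RNA-seq libraries. They were taken as every counted gene whose symbol begins with Psma, Psmb, Psmc, Psmd, Psme, Psmf or Psmg followed by a digit, leaving out Psmb8 and Psmb9. This gave 48 of 17992 counted genes. Of the 48, 45 encode proteasome subunits, activators, an inhibitor or assembly factors. The other 3 share the symbol pattern only: Psmc3ip, a factor of meiotic recombination, Psme3ip1, whose product binds the activator Psme3, and Psma5-ps, listed as a pseudogene of Psma5.

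All mice were adult, wild type and C57BL/6, a strain that the labels give under a cell line tag, and total RNA came from their brains. AGNHW stands for Angong Niuhuang Wan, a compound remedy of Chinese medicine, and mice of that group received 3 mg per g each day. The vehicle group was the model of middle cerebral artery occlusion, a stroke model made by blocking blood flow to part of the forebrain, and the sham group was the operated control. Occlusion is written on the label of vehicle and not on that of AGNHW. Which brain region was taken, how long after occlusion, and from how many mice is not given in the sources used. With 1 library per group there is no replicate check and no test of the conditions, and the words higher and lower compare single libraries.

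The proteasome is the protease that degrades ubiquitin-tagged proteins in the cytosol and nucleus. Its barrel-shaped core particle, called 20S, is built of outer alpha rings, which gate the entrance, and inner beta rings, which hold the active sites. The regulatory particle, called 19S, caps the core: its ATPase ring unfolds substrates, and its non-ATPase subunits bind and remove ubiquitin. In neurons the proteasome takes part in synaptic protein turnover, and cells that lose proteasome activity can raise the whole set of subunit genes through the transcription factor Nfe2l1.

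The libraries held 18184691 counts (AGNHW), 15718594 counts (vehicle) and 18286151 counts (sham). Levels are given as CPM, the counts on the usual common library total, scaled by the trimmed mean of M-values (TMM). The 8 neuronal markers summed to 6148 CPM in AGNHW, 6373 CPM in vehicle and 6373 CPM in sham, so each library held neuronal transcripts. The like sums hide single markers that differed in both directions. For vehicle over sham their log2 ratios ran from -0.40 to 0.33, with a median of -0.19. Of 7 counted pituitary genes, the sum was 4.6 CPM in AGNHW, 3745 CPM in vehicle and 4.41 CPM in sham; Cga was at 0 in AGNHW, and Gh, Prl and Ghrhr were at 0 in sham. The 5 counted red cell genes summed to 65.1 CPM in AGNHW, 163 CPM in vehicle and 52.8 CPM in sham, and none was at 0. The vehicle library therefore held pituitary transcripts that the others nearly lacked, and more red cell transcripts than the others; their part in the results below was not tested. Smaller differences in summed level were seen for 6 oligodendrocyte markers, with 8604 CPM in AGNHW, 9238 CPM in vehicle and 7057 CPM in sham, and for 6 astrocyte markers, with 2017 CPM in AGNHW, 1738 CPM in vehicle and 2481 CPM in sham. In extracts of mixed cells, fewer cells of a type and less RNA per cell cannot be told apart.

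Proteasome transcripts were most abundant in the vehicle library, intermediate in the AGNHW library and least abundant in the sham library. The 48 genes together had 71293 counts in AGNHW, 66983 counts in vehicle and 65251 counts in sham. These were 0.392% of the AGNHW library (95% exact binomial interval 0.389 to 0.395), 0.426% of the vehicle library (0.423 to 0.429) and 0.357% of the sham library (0.354 to 0.360). The intervals do not overlap, but here and throughout they cover counting error only. The summed level after TMM scaling was 0.886 times as high in AGNHW as in vehicle (95% exact conditional binomial interval 0.877 to 0.896), 1.27 times as high in vehicle as in sham (1.26 to 1.28) and 1.13 times as high in AGNHW as in sham (1.11 to 1.14).

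The order of the libraries was shared by most members. The vehicle library had the highest level for 35 of the 48 genes, 72.9%, against 40.7% of the 15558 genes with a mean of at least 1 CPM. Sham had the lowest level for 36 of the 48 genes, 75%, against 41.6% of those genes. The AGNHW level lay between the other libraries for 38 of the 48 genes, 79.2%, against 62.9%. All 48 members had a mean of at least 1 CPM, so none was lost to this filter, and the smallest count was 41.

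**Figure D1:**
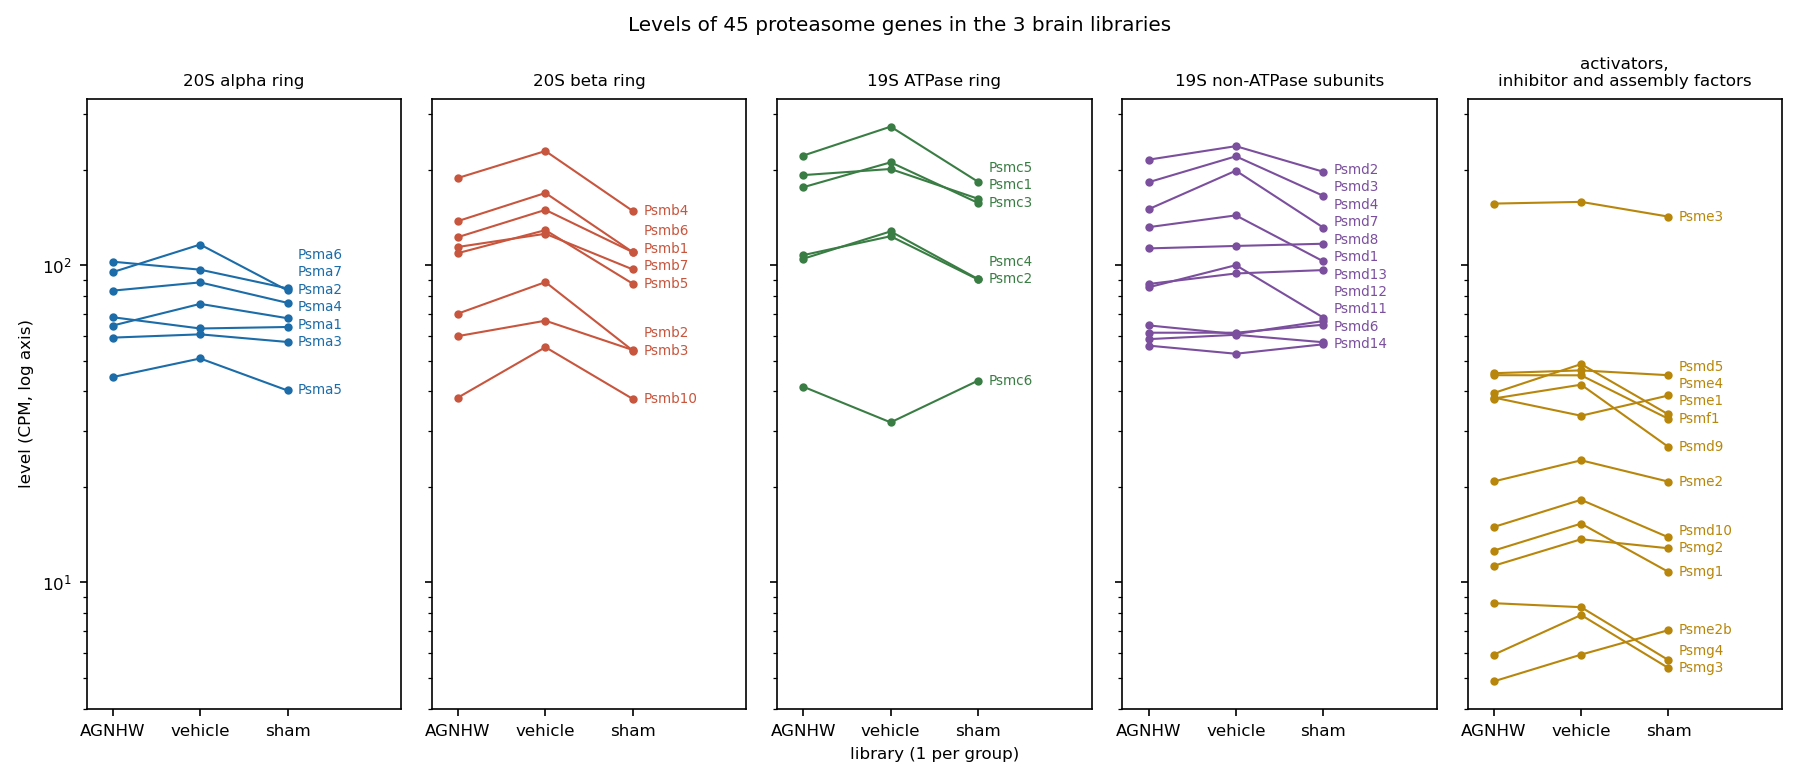
Levels of the 45 proteasome genes in CPM (log axis) in the AGNHW, vehicle and sham libraries, 1 panel per structural class and 1 line per gene; the lines join values of the same gene and mark no time course. All 8 beta ring genes peak in vehicle with sham lowest, while Psmc6 in the ATPase ring has its lowest value in vehicle.

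Fold differences of single members were small. A gene was counted as higher or lower when its ratio was at least 1.5 either way and the 95% counting interval of the ratio excluded 1. Between AGNHW and vehicle, 0 of 48 members were higher by this rule, where 4.01% of all genes were, and 0 were lower, where 2.56% of all genes were. Between vehicle and sham, 5 members were higher (Psmb3, Psmb4, Psmb6, Psmd4 and Psmd9), where 8.66% of all genes were, and 0 were lower, where 14.2% of all genes were. Between AGNHW and sham, 1 member was higher (Psmg4), where 3.32% of all genes were, and 0 were lower, where 5.47% of all genes were. With unscaled CPM, 1 member was higher for vehicle over sham, Psmb3 at 1.55, and 0 for AGNHW over sham; the other 5 genes called had ratios of 1.42 to 1.48. A count of 5 in 48 is near the background share of higher genes, so large ratios above 1 did not set the members apart. For vehicle over sham 0 were lower, where 14.2% of all genes were, and the members' shared direction was the wider pattern. On the log2 scale, 9 of 48 members were above 0 for AGNHW over vehicle (18.8%, against 50.2% of all genes), 38 were above 0 for vehicle over sham (79.2%, against 50.9%) and 37 were above 0 for AGNHW over sham (77.1%, against 50%). The members' median log2 ratio was -0.18 for AGNHW over vehicle, 0.35 for vehicle over sham and 0.14 for AGNHW over sham, where the medians of all genes were 0.0020, 0.012 and -0.00066 in the same comparisons. These comparisons share libraries, so they are not independent of each other.

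With the fold lowered to 1.2, the counts moved further from the background in some directions. Between AGNHW and vehicle, 1 member was higher (13.8% of all genes) and 14 were lower (11.5% of all genes): Psma7, Psmb1, Psmb3, Psmb4, Psmb6, Psmb10, Psmc4, Psmc5, Psmd3, Psmd4, Psmd10, Psme1, Psmg1 and Psmg3. Between vehicle and sham, 27 were higher (25.1% of all genes) and 1 was lower (26.2% of all genes). Between AGNHW and sham, 11 were higher (13.3% of all genes), namely Psma6, Psmb3, Psmb4, Psmb5, Psmb6, Psmc5, Psmd8, Psmd9, Psmd13, Psmf1 and Psmg4, and 1 was lower (17.4% of all genes). The lone exceptions were Psmc6, higher in AGNHW than in vehicle and lower in vehicle than in sham, and Psme2b, lower in AGNHW than in sham.

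**Figure D2:**
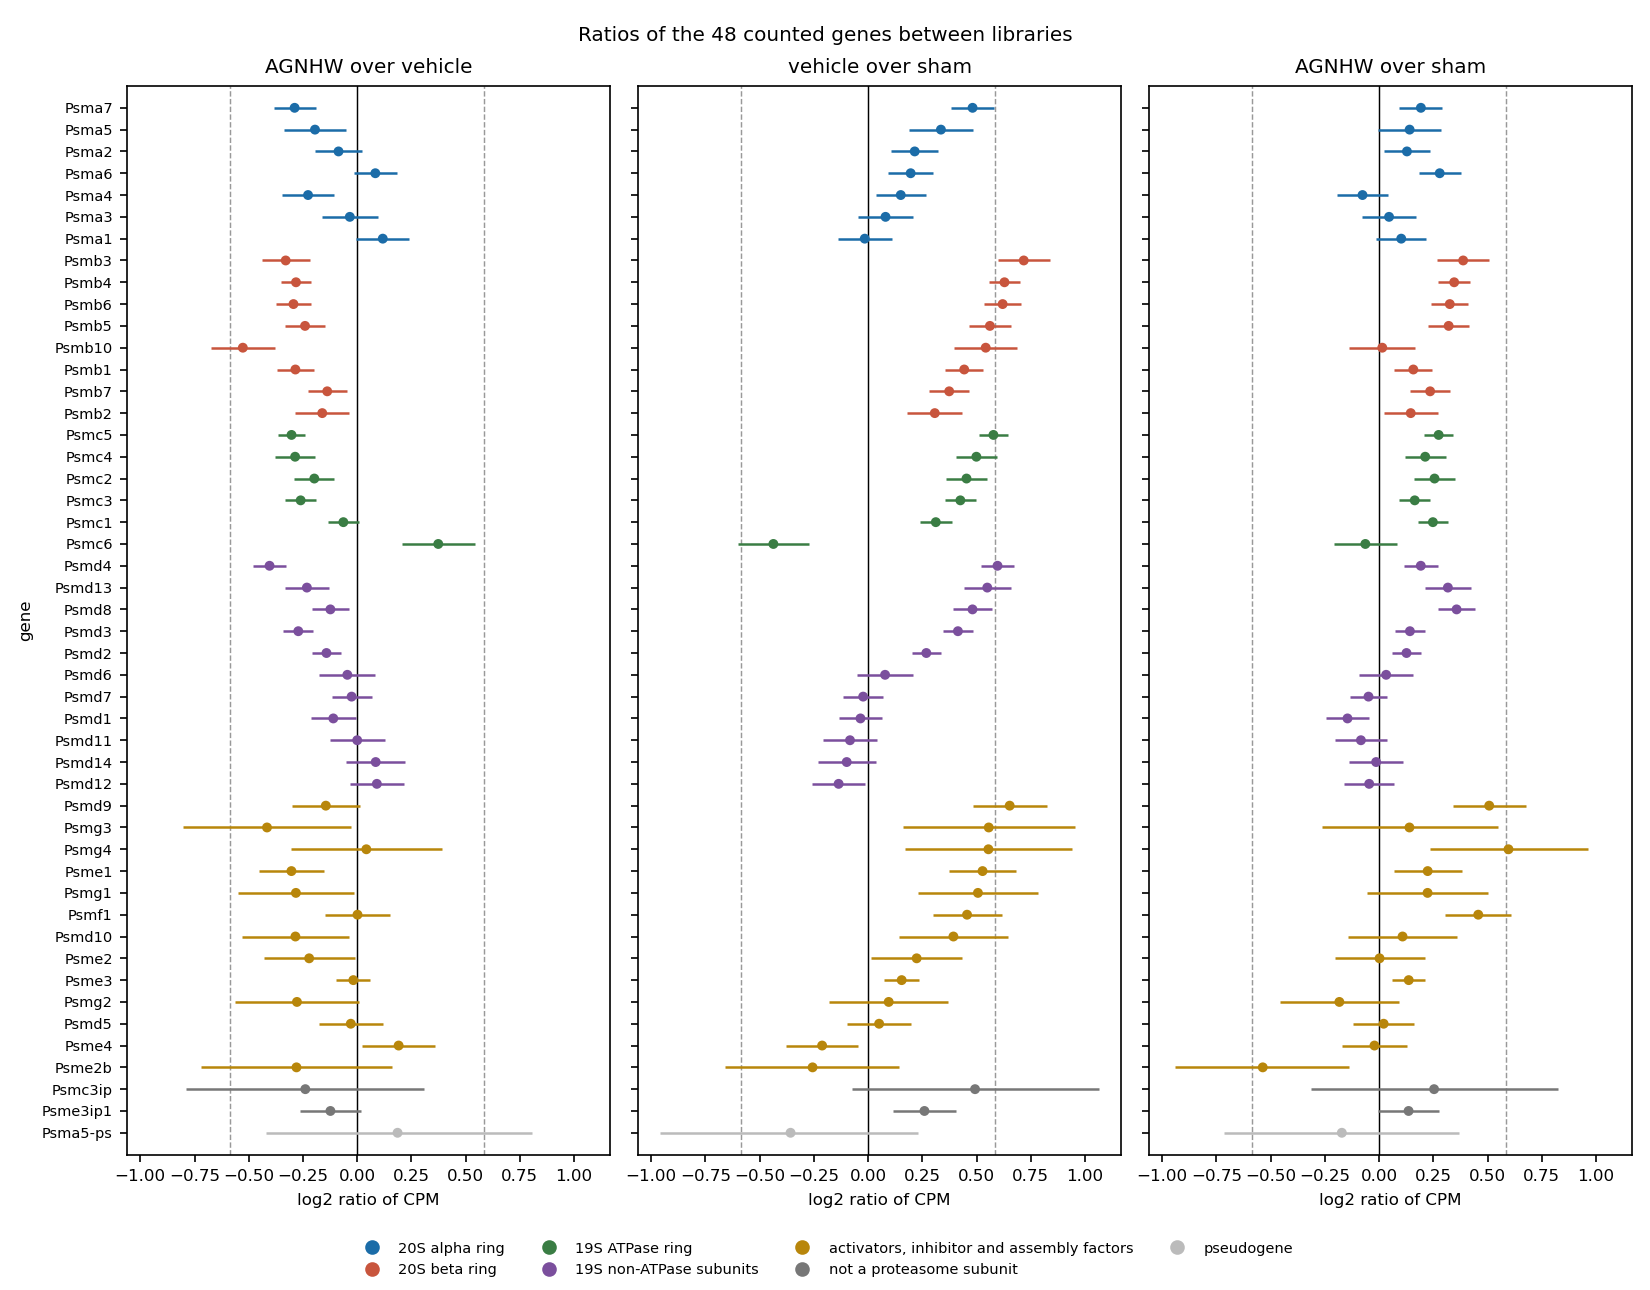
Log2 ratio of CPM for each of the 48 genes in the 3 comparisons, coloured by class; points are ratios, bars are 95% counting intervals and dashed lines mark 1.5-fold. Most points lie left of 0 for AGNHW over vehicle and right of 0 for vehicle over sham, and 5 lie beyond the upper dashed line for vehicle over sham.

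The beta ring, which carries the catalytic sites, showed the widest class difference between vehicle and sham. Its 8 counted genes summed to 841 CPM in AGNHW, 1013 CPM in vehicle and 699 CPM in sham. The ratio of sums was 0.830 for AGNHW over vehicle (0.812 to 0.849), 1.45 for vehicle over sham (1.42 to 1.48) and 1.2 for AGNHW over sham (1.18 to 1.23). For vehicle over sham, all 8 genes were higher by at least 1.2-fold, where 25.1% of all genes were. The median log2 ratio of the 8 was 0.55 with a range of 0.31 to 0.71.

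The 3 constitutive catalytic subunits followed this order. Psmb5, the chymotrypsin-like subunit and the target of bortezomib, had 109 CPM in AGNHW, 129 CPM in vehicle and 87.5 CPM in sham. Vehicle stood highest, with a ratio of 1.48 to sham (1.38 to 1.58), and the AGNHW level was 0.846 times the vehicle level (0.795 to 0.901). Psmb6, the caspase-like subunit, had 138 CPM in AGNHW, 169 CPM in vehicle and 110 CPM in sham, with ratios of 0.816 for AGNHW over vehicle (0.772 to 0.862) and 1.54 for vehicle over sham (1.45 to 1.63). Psmb7, the trypsin-like subunit, differed least of the 3, with 114 CPM in AGNHW, 126 CPM in vehicle and 97 CPM in sham and a ratio of 1.30 for vehicle over sham (1.21 to 1.38). Psmb7 shares 405 exonic bases with Nek6 on the opposite strand in the GENCODE annotation, and without the strand setting the reads of the pair cannot be told apart.

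The promoters of Psmb5 and Psmb6 are shown because they hold the core of the antioxidant response element, TGACNNNGC, the kind of site through which Nfe2l1 and its relative Nfe2l2 act. Each line is the reference (RefSeq, GRCm38.p6), 5′ to 3′ on the gene's strand, with the motif in capitals; Psmb5 is chr14:54617996-54618095 on the minus strand and Psmb6 is chr11:70525257-70525356 on the plus strand. Both windows end next to the annotated start.
Psmb5: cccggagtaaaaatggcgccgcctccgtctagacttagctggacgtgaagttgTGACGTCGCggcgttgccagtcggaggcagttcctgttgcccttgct
Psmb6: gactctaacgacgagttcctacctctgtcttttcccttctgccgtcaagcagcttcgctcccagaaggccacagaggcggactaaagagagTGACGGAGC
The first base of the motif lies 47 bases before the start in Psmb5 and 9 bases before it in Psmb6. On either strand of the 250 bases before the start, 5 of the 40 members with a RefSeq promoter held this motif (Psmb5, Psmb6, Psmc6, Psmd9 and Psmd12), or 12.5%, against 13.8% of 12754 counted genes with a promoter. The share in the members was thus about that of other genes. The 5 had a median log2 ratio of 0.56 for vehicle over sham, with a range of -0.43 to 0.65, against 0.33 for the 35 without it. After the correction for length and GC content described below, the order was the other way, with medians of 0.035 for the 5 and 0.15 for the 35. A match describes these letters and is not a measured binding site.

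Among the non-catalytic beta subunits, Psmb3 had the highest ratio of any member for vehicle over sham. It had 70.4 CPM in AGNHW, 88.5 CPM in vehicle and 53.8 CPM in sham, a ratio of 1.64 for vehicle over sham (1.51 to 1.79) and 0.796 for AGNHW over vehicle (0.737 to 0.860). Psmb4 was the most abundant beta transcript in CPM, with 189 CPM in AGNHW, 229 CPM in vehicle and 148 CPM in sham and a ratio of 1.55 for vehicle over sham (1.47 to 1.63). Psmb1 had 123 CPM in AGNHW, 150 CPM in vehicle and 110 CPM in sham, and Psmb2 had 59.8 CPM in AGNHW, 66.9 CPM in vehicle and 54 CPM in sham. Their ratios for vehicle over sham were smaller, 1.36 (1.28 to 1.44) for Psmb1 and 1.24 (1.13 to 1.35) for Psmb2.

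Psmb10 is the immunoproteasome counterpart of Psmb7, induced by interferon-gamma in many cell types. It had 38.3 CPM in AGNHW, 55.2 CPM in vehicle and 37.9 CPM in sham. The vehicle level stood apart from the other libraries, which lay within counting error of each other: the ratio was 0.694 for AGNHW over vehicle (0.627 to 0.768), the lowest of any member in that comparison, 1.46 for vehicle over sham (1.32 to 1.61) and 1.01 for AGNHW over sham (0.909 to 1.12), a value on the other side of 1 with unscaled CPM. Its partners in the immunoproteasome, Psmb8 and Psmb9, which are not counted among the 48, were scarce. Psmb8 had 54 counts in AGNHW, 44 in vehicle and 75 in sham, and Psmb9 had 38, 23 and 37 in the same libraries. For these partners vehicle was the lowest library, with ratios for vehicle over sham of 0.726 (0.489 to 1.07) for Psmb8 and 0.769 (0.436 to 1.33) for Psmb9, whose intervals include 1. The interferon-stimulated list was also lower in vehicle, with summed levels of 126 CPM in AGNHW, 113 CPM in vehicle and 280 CPM in sham. Of its 19 tested genes, 17 were lower by at least 1.5-fold for vehicle over sham, where 14.2% of all genes were. As measured, Psmb10 thus ran the opposite way to this list between vehicle and sham. After the correction for length and GC content described below, its log2 ratio was 0.06, near the trend of all genes. The corrected median of the list was -2.03.

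The alpha ring differed less than the beta ring. Its 7 genes summed to 518 CPM in AGNHW, 551 CPM in vehicle and 473 CPM in sham, with ratios of 0.939 for AGNHW over vehicle (0.911 to 0.967), 1.16 for vehicle over sham (1.13 to 1.2) and 1.09 for AGNHW over sham (1.06 to 1.13). For vehicle over sham, 2 of the 7 were higher by at least 1.2-fold, Psma7 and Psma5, a share near the 25.1% of all genes. Psma7 had 95.2 CPM in AGNHW, 116 CPM in vehicle and 83.3 CPM in sham, with a ratio of 1.40 for vehicle over sham (1.30 to 1.5). Psma1 lay at the other end of the ring, with 68.6 CPM in AGNHW, 63.2 CPM in vehicle and 63.9 CPM in sham and a ratio of 0.989 for vehicle over sham (0.908 to 1.08). Psma6 was highest in AGNHW, with 103 CPM in AGNHW, 96.8 CPM in vehicle and 84.5 CPM in sham. Psma4 had 64.6 CPM in AGNHW, 75.5 CPM in vehicle and 68.1 CPM in sham, so its AGNHW level was the lowest of the 3. Psma2 and Psma3 had ratios for vehicle over sham of 1.16 (1.08 to 1.25) and 1.06 (0.967 to 1.16). Alpha and beta subunits enter the core particle in equal number, yet their transcripts did not keep one ratio across the libraries.

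The ATPase ring had 5 genes that were highest in vehicle and 1 that was lowest there. The 6 genes summed to 844 CPM in AGNHW, 969 CPM in vehicle and 727 CPM in sham, with ratios of sums of 0.871 for AGNHW over vehicle (0.852 to 0.891), 1.33 for vehicle over sham (1.30 to 1.37) and 1.16 for AGNHW over sham (1.14 to 1.19). Psmc5 was the most abundant member of all in CPM, with 222 CPM in AGNHW, 274 CPM in vehicle and 183 CPM in sham. Its ratio was 0.811 for AGNHW over vehicle (0.776 to 0.847) and 1.49 for vehicle over sham (1.43 to 1.56). Psmc1, Psmc2, Psmc3 and Psmc4 followed the same order, with ratios for vehicle over sham of 1.24 to 1.41. Psmc3 shares 97 exonic bases with Slc39a13 on the opposite strand.

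Psmc6 went the other way. It had 41.4 CPM in AGNHW, 32.0 CPM in vehicle and 43.3 CPM in sham, so vehicle was the low library and the others lay close together. The ratio was 1.30 for AGNHW over vehicle (1.15 to 1.45), the highest of any member in that comparison, 0.739 for vehicle over sham (0.659 to 0.828), the lowest of any member in that comparison, and 0.957 for AGNHW over sham (0.866 to 1.06). Its transcript has the lowest GC content of the 45 proteasome genes, 37.0%. The 6 ATPases stand in one ring in equal number, yet per kilobase of transcript Psmc5 exceeded Psmc6 by 9.10 times in AGNHW, 14.5 times in vehicle and 7.20 times in sham. The Psmc6 level rests on an annotated transcript of 2234 bases, 1167 of them coding. If the brain uses shorter ends, that level is too low here.

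The non-ATPase subunits of the regulatory particle split into a group that was higher in vehicle and a group near the sham level. Their 11 genes summed to 1206 CPM in AGNHW, 1345 CPM in vehicle and 1124 CPM in sham, and 5 of the 11 were higher by at least 1.2-fold for vehicle over sham, where 25.1% of all genes were. Psmd4, a ubiquitin receptor, had 150 CPM in AGNHW, 199 CPM in vehicle and 131 CPM in sham. Its ratio was 0.756 for AGNHW over vehicle (0.717 to 0.796) and 1.51 for vehicle over sham (1.43 to 1.59), the widest of this class in both comparisons. Psmd13, Psmd8 and Psmd3, all lid subunits, had ratios for vehicle over sham of 1.46 (1.36 to 1.58), 1.40 (1.31 to 1.48) and 1.33 (1.27 to 1.40). Psmd2, a scaffold subunit and the most abundant of the class in CPM, had 215 CPM in AGNHW, 237 CPM in vehicle and 197 CPM in sham. Its ratio of 1.2 for vehicle over sham (1.15 to 1.26) made it the fifth gene past 1.2-fold. Psmd13 shares 152 exonic bases with Sirt3 on the opposite strand.

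The other lid subunits and the scaffold Psmd1 differed little. Psmd14, the deubiquitinase that cuts ubiquitin chains from substrates, had 55.8 CPM in AGNHW, 52.6 CPM in vehicle and 56.3 CPM in sham, a ratio of 0.934 for vehicle over sham (0.851 to 1.02). Psmd11, a lid subunit known to limit assembly of the whole particle in human stem cells and in Caenorhabditis elegans, had 61.3 CPM in AGNHW, 61.3 CPM in vehicle and 64.9 CPM in sham, a ratio of 0.944 for vehicle over sham (0.866 to 1.03). Both intervals include 1. Psmd12 had 64.6 CPM in AGNHW, 60.7 CPM in vehicle and 66.7 CPM in sham, and its ratio of 0.910 for vehicle over sham (0.835 to 0.991) lay on the low side. Psmd1 had 87.3 CPM in AGNHW, 94.2 CPM in vehicle and 96.6 CPM in sham, with a ratio of 0.904 for AGNHW over sham (0.845 to 0.967). Psmd6 and Psmd7, also in the lid, stayed within 57.2 to 60.4 CPM and within 113 to 117 CPM over the 3 libraries. The class median log2 ratio was -0.11 for AGNHW over vehicle, 0.08 for vehicle over sham and 0.03 for AGNHW over sham; with unscaled CPM it was -0.01 for vehicle over sham and just below 0 for AGNHW over sham, so its direction in those comparisons depends on the scaling.

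The promoters of Psmd4, Psmd11 and Psmc6 are shown because they share the ETS-family motif CCGGAAG while their vehicle to sham ratios differ, at 1.51 for Psmd4, 0.944 for Psmd11 and 0.739 for Psmc6. Each line is the RefSeq reference (GRCm38.p6), 5′ to 3′ on the gene's strand, with the motif on either strand in capitals; Psmd4 is chr3:95042690-95042789 on the minus strand, Psmd11 is chr11:80428515-80428614 on the plus strand and Psmc6 is chr14:45329674-45329773 on the plus strand.
Psmd4: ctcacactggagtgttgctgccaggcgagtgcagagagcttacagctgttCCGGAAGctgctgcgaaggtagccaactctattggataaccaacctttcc
Psmd11: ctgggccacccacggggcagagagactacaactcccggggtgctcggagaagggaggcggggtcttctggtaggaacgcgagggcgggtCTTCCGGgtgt
Psmc6: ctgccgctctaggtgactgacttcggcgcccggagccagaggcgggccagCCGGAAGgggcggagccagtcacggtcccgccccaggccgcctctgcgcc
The motif begins 125 bases before the start in Psmd4, 11 bases before it in Psmd11, where it reads on the opposite strand, and 100 bases before it in Psmc6. It was found on either strand of the 250 bases before the start in 13 of 40 members, 32.5%, against 13.3% of 12754 counted genes and 7.83% of 27025 RefSeq genes with a promoter. The 13 had a median log2 ratio of 0.20 for vehicle over sham, with a range of -0.43 to 0.60, and the 27 without it had a median of 0.48; after the correction for length and GC content described below, the medians were 0.15 and 0.14. The CCAAT box, searched as CCAAT, was found in 14 of 40 members, 35.0%, against 39.6% of counted genes, and the palindromic motif of NRF-1 (nuclear respiratory factor) in 1 member, Psma2.

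The activators showed no common direction. Psme1 and Psme2 encode the subunits of PA28 alpha-beta, an interferon-inducible cap that opens the core particle without ubiquitin. Psme1 had 39.5 CPM in AGNHW, 48.8 CPM in vehicle and 33.9 CPM in sham, with ratios of 0.810 for AGNHW over vehicle (0.730 to 0.899) and 1.44 for vehicle over sham (1.29 to 1.60). Psme1 shares 7 exonic bases with Emc9 on the opposite strand. Psme2 had 20.8 CPM in AGNHW, 24.3 CPM in vehicle and 20.8 CPM in sham, a ratio of 1.17 for vehicle over sham (1.01 to 1.35). Psme2b, a near copy of Psme2 with which it may share reads, had 4.87 CPM in AGNHW, 5.92 CPM in vehicle and 7.07 CPM in sham, so the value of each is uncertain. Psme2b was also the lowest member for AGNHW over sham, at 0.690 (0.521 to 0.909). Psme3, the nuclear PA28 gamma, was the most abundant activator and varied little, with 156 CPM in AGNHW, 158 CPM in vehicle and 142 CPM in sham. Psme4, the large activator PA200, was lowest in vehicle as measured, with 38.3 CPM in AGNHW, 33.5 CPM in vehicle and 38.8 CPM in sham. Its ratios were 1.14 for AGNHW over vehicle (1.02 to 1.28) and 0.863 for vehicle over sham (0.769 to 0.968). The correction for length and GC content described below changed these directions. Corrected log2 ratios for vehicle over sham were 0.35 for Psme4, 0.15 for Psme3 and 0.03 for Psme1. They were -0.24 for Psme2 and -0.56 for Psme2b.

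Psmf1 and Psmd9 stayed above sham in the AGNHW library. They were among the 11 members higher by at least 1.2-fold for AGNHW over sham, where 13.3% of all genes were. Psmf1, known as the proteasome inhibitor PI31 and as a factor in proteasome transport in neurons, had 45 CPM in AGNHW, 45 CPM in vehicle and 32.8 CPM in sham. AGNHW and vehicle were level, and both exceeded sham by 1.37 times (1.24 to 1.53 for AGNHW, 1.23 to 1.53 for vehicle). Psmd9, an assembly chaperone of the ATPase ring, had 38.0 CPM in AGNHW, 42.0 CPM in vehicle and 26.7 CPM in sham, with ratios of 1.42 for AGNHW over sham (1.27 to 1.60) and 1.57 for vehicle over sham (1.40 to 1.77).

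The other chaperones of the ATPase ring, Psmd5 and Psmd10, had the same order of libraries with smaller ratios. Psmd5 differed by no more than counting error, with 45.7 CPM in AGNHW, 46.6 CPM in vehicle and 45 CPM in sham. Psmd10, also called gankyrin, had 14.9 CPM in AGNHW, 18.2 CPM in vehicle and 13.9 CPM in sham, with ratios of 0.821 for AGNHW over vehicle (0.692 to 0.974) and 1.31 for vehicle over sham (1.10 to 1.56). The corrected log2 ratios for vehicle over sham, explained below, lay close together, at 0.49 for Psmd9, 0.47 for Psmd5 and 0.55 for Psmd10.

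The assembly chaperones of the alpha ring were the least abundant proteasome genes beside Psme2b, and their intervals were wide. Psmg1 had 12.6 CPM in AGNHW, 15.3 CPM in vehicle and 10.8 CPM in sham, and its partner Psmg2 had 11.3 CPM in AGNHW, 13.7 CPM in vehicle and 12.8 CPM in sham. Their ratios for vehicle over sham were 1.42 (1.17 to 1.72) for Psmg1 and 1.07 (0.883 to 1.29) for Psmg2, although the proteins act as a pair. Psmg3 had 5.91 CPM in AGNHW, 7.89 CPM in vehicle and 5.37 CPM in sham, and its partner Psmg4 had 8.6 CPM in AGNHW, 8.35 CPM in vehicle and 5.69 CPM in sham. For vehicle over sham both had a ratio of 1.47, and they parted in AGNHW: Psmg4 was 1.51 times the sham level (1.18 to 1.95) and Psmg3 was 1.10 times it (0.832 to 1.46). Psmg4 was the member with the highest ratio for AGNHW over sham, on 157 counts in AGNHW and 107 in sham.

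The 3 genes that share only the symbol pattern had few counts or small differences. Psmc3ip had 3.23 CPM in AGNHW, 3.81 CPM in vehicle and 2.71 CPM in sham, and its ratio of 1.41 for vehicle over sham had an interval of 0.949 to 2.09. It shares 385 exonic bases with Mlx on the opposite strand. Psma5-ps had 56 counts in AGNHW, 41 in vehicle and 65 in sham, and since it resembles Psma5 its reads are uncertain. Psme3ip1 had 46.7 CPM in AGNHW, 50.8 CPM in vehicle and 42.5 CPM in sham.

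Levels of different genes were compared per kilobase of the principal GENCODE transcript. Among the 14 constitutive subunits of the core particle, the median level was 80.9 CPM per kilobase in AGNHW, 89.0 in vehicle and 66.6 in sham. Their coefficient of variation was 54.1% in AGNHW, 58.9% in vehicle and 48.2% in sham, so the subunits as measured were most uneven in the vehicle library. These levels are not corrected for the trend with length and GC content described below. The part of that trend in the spread was not tested. Psmb6 was the highest, at 173 CPM per kilobase in AGNHW, 212 in vehicle and 138 in sham, and Psma3 the lowest, at 20.8, 21.3 and 20.1 in the same libraries. The value of Psma3 rests on an annotated transcript of 2846 bases; that of Psma2 has 2911 bases, and if the brain uses shorter ends both levels are too low here. Levels per kilobase were far lower in the class of activators, inhibitor and assembly factors, with a median of 11.8 in AGNHW, 12.9 in vehicle and 10.2 in sham.

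The differences between members followed the GC content and length of their transcripts. Across the 45 proteasome genes, Pearson's r between transcript GC content and the log2 ratio was -0.66 for AGNHW over vehicle, 0.72 for vehicle over sham and 0.45 for AGNHW over sham. For the log2 of transcript length, r was 0.45 for AGNHW over vehicle, -0.40 for vehicle over sham and -0.17 for AGNHW over sham. These are descriptions across genes, which share libraries and are not independent replicates. The same relations ran through the whole data: across 10070 genes with a mean of at least 10 CPM, r with GC content was -0.41 for AGNHW over vehicle, 0.56 for vehicle over sham and 0.52 for AGNHW over sham. A smooth trend on length and GC content took up 28.0% of the variance of the log2 ratios for AGNHW over vehicle, 48.5% for vehicle over sham and 38.8% for AGNHW over sham. Proteasome transcripts are short, with a median of 1430 bases against 3205 bases for those genes.

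**Figure D3:**
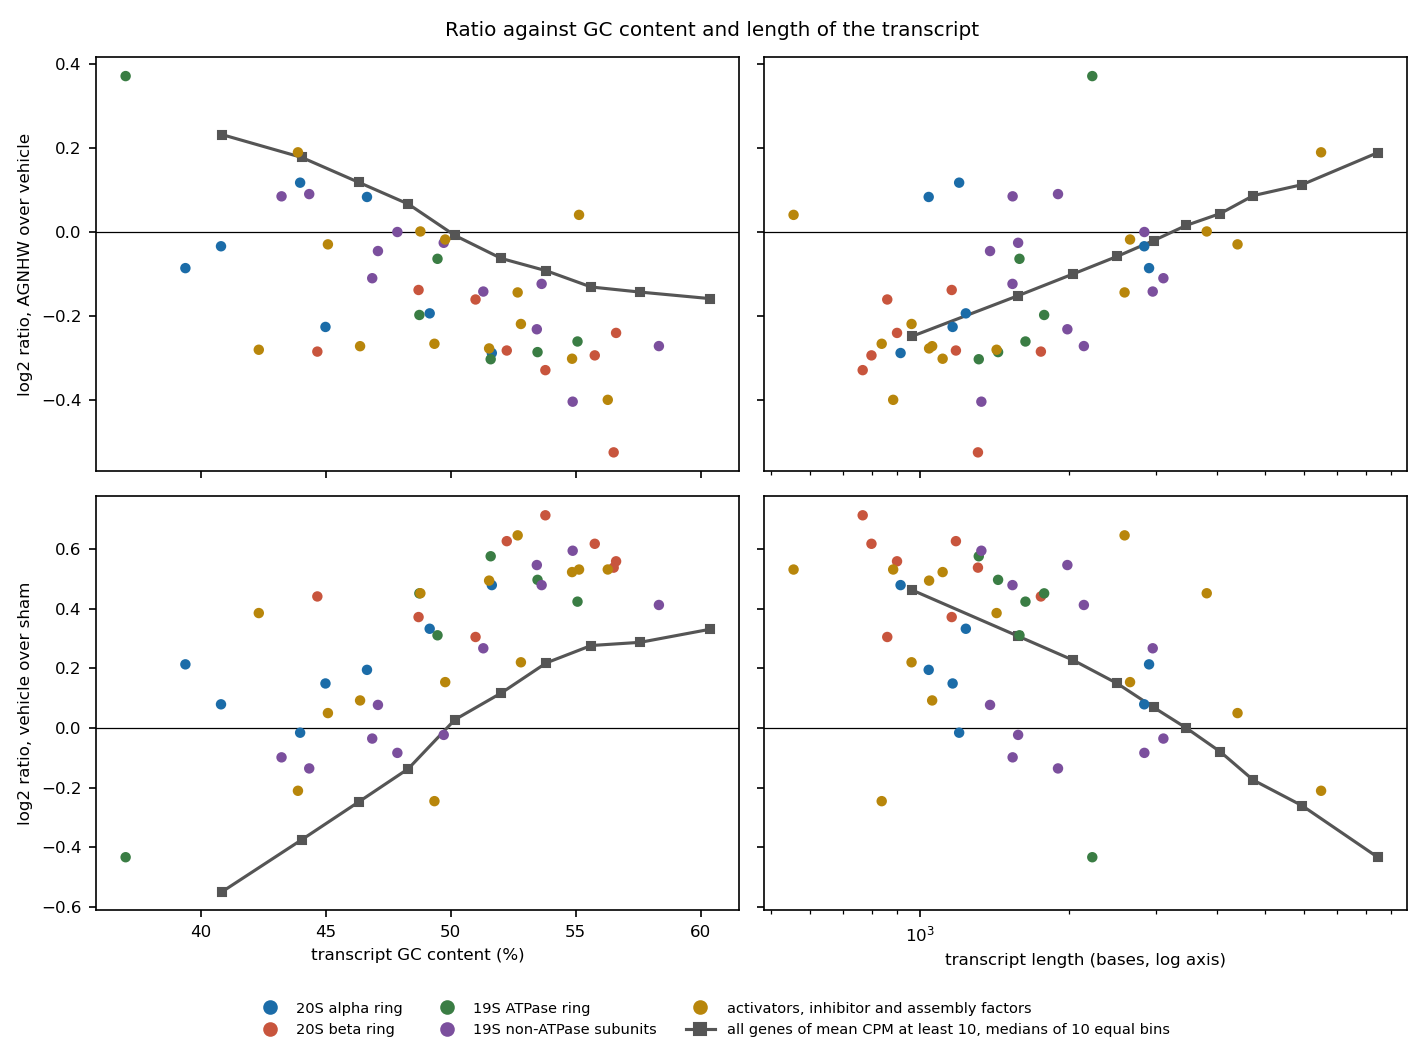
Log2 ratio of each of the 45 proteasome genes against the GC content (left) and the length (right, log axis) of its transcript, for AGNHW over vehicle (top) and vehicle over sham (bottom); grey squares are medians of 10 equal bins of all genes with a mean of at least 10 CPM. The members slope with GC content as all genes do (r of -0.66 above and 0.72 below), and Psmc6 is the point farthest left.

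Splitting the 45 genes at their median GC content of 49.7% shows the size of this relation. For vehicle over sham, the 23 genes at or above it had a median log2 ratio of 0.52 and 22 of them were above 0, while the 22 genes below it had a median of 0.09 with 14 above 0. For AGNHW over vehicle the medians were -0.27 in the 23 genes of higher GC content and -0.05 in the 22 of lower GC content. With the trend of all genes taken off, which is called the corrected ratio here, the medians for vehicle over sham were 0.07 in the genes of higher GC content and 0.16 in those of lower GC content. The order of these medians was thus turned round. Since the correction takes off a trend with GC content, a narrower split was built into it.

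The class pattern narrowed in the same way. The median log2 ratio of the beta ring for vehicle over sham was 0.55 as measured and 0.11 corrected, and that of the ATPase ring was 0.44 as measured and 0.15 corrected. The alpha ring moved less, from 0.20 as measured to 0.14 corrected, and the non-ATPase subunits had 0.08 as measured and 0.07 corrected. After correction all 5 class medians lay between 0.07 and 0.15 for vehicle over sham. Over the 48 members the corrected median was -0.08 for AGNHW over vehicle, 0.13 for vehicle over sham and 0.08 for AGNHW over sham, and 83.3% of members were above 0 for vehicle over sham, against 51.5% of all genes. When coding length was used in place of transcript length, a choice made after the data were seen because some annotated 3′ ends are long, the corrected median for vehicle over sham was 0.28. What the trend with length and GC content stems from was not tested.

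Once the ratios were corrected, fewer members passed the size rule for vehicle over sham, and a smaller share of all genes did too. At 1.5-fold, 2 members were higher for vehicle over sham, Psma2 and Psmf1, where 4.36% of all genes were, and 0 were lower, where 7.0% of all genes were. For AGNHW over vehicle none passed in either direction, where 3.18% of all genes were higher and 1.67% lower. For AGNHW over sham 0 were higher, where 2.81% of all genes were, and 1 was lower, Psme2b, where 3.17% of all genes were. At 1.2-fold, 11 members were higher and 1 lower for vehicle over sham, where 15.1% of all genes were higher and 16.1% lower. For AGNHW over vehicle 1 was higher and 4 were lower at 1.2-fold, where 8.71% of all genes were higher and 6.59% lower, and for AGNHW over sham 5 were higher and 1 was lower, where 9.83% of all genes were higher and 10.2% lower.

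Single genes parted from each other under the correction. For vehicle over sham the corrected log2 ratio was -0.03 for Psmb5, 0.01 for Psmb6 and 0.04 for Psmc6, so these 3 lay on the trend of all genes although they had stood at opposite ends as measured. The members farthest above the trend were Psma2 at 0.69, Psmf1 at 0.63, Psmb1 at 0.58, Psmd10 at 0.55, Psma3 at 0.50, Psmd9 at 0.49 and Psmd5 at 0.47. For AGNHW over sham, Psmf1 had 0.54 and Psmd9 had 0.41. Psmb10 had 0.06 for vehicle over sham and -0.28 for AGNHW over vehicle. Some of these genes have long annotated transcripts, with 2911 bases in Psma2, 2846 in Psma3, 3809 in Psmf1 and 4397 in Psmd5, and Psma2 and Psma3 also have a low GC content, 39.4% and 40.8%; the share of each in the corrected values was not tested.

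Genes that work with the proteasome were read beside its subunits. Of 20 counted partners of the proteasome, 4 were higher and 7 lower by at least 1.2-fold for vehicle over sham, with a median log2 ratio of -0.08 as measured and 0.08 corrected, against 27 higher and 1 lower of the 48 members and 25.1% higher and 26.2% lower of all genes. Sem1, the smallest subunit of the regulatory particle, had 31.5 CPM in AGNHW, 38.6 CPM in vehicle and 27.8 CPM in sham, a ratio of 1.39 for vehicle over sham (1.23 to 1.57). Adrm1, a ubiquitin receptor, had 123 CPM in AGNHW, 131 CPM in vehicle and 112 CPM in sham, and Pomp, the maturation factor of the core particle, had 106 CPM in AGNHW, 116 CPM in vehicle and 94.3 CPM in sham. As measured, these 3 had the order of most members. Their corrected log2 ratios for vehicle over sham parted, at 0.81 for Sem1, 0.19 for Pomp and -0.22 for Adrm1. The deubiquitinase Usp14, with 69.3 CPM in AGNHW, 59.0 CPM in vehicle and 71.7 CPM in sham, and the scaffold Ecpas, with 55.2 CPM in AGNHW, 44.3 CPM in vehicle and 62.5 CPM in sham, were lowest in vehicle. Their ratios for vehicle over sham were 0.823 (0.756 to 0.896) for Usp14 and 0.708 (0.644 to 0.779) for Ecpas, and their corrected log2 ratios were 0.37 and 0.08.

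The regulators of subunit transcription did not share one direction. Nfe2l1 had 503 CPM in AGNHW, 543 CPM in vehicle and 456 CPM in sham, a ratio of 1.19 for vehicle over sham (1.15 to 1.23). Ddi2, the protease that releases active Nfe2l1, had 45.3 CPM in AGNHW, 38.5 CPM in vehicle and 50.4 CPM in sham, a ratio of 0.763 for vehicle over sham (0.688 to 0.847). Of 11 counted genes of this pathway, 2 were higher and 4 lower by at least 1.2-fold for vehicle over sham, where 25.1% of all genes were higher and 26.2% lower. The 2 higher genes encode small Maf proteins, with which Nfe2l1 binds DNA: Maff had 7.23 CPM in AGNHW, 9.99 CPM in vehicle and 2.39 CPM in sham, and Mafk had 20.4 CPM in AGNHW, 30.7 CPM in vehicle and 19.7 CPM in sham. Maff was 4.18 times as high in vehicle as in sham (2.98 to 5.97) and Mafk 1.56 times (1.36 to 1.79), while another small Maf, Mafg, which is named after its values were seen, had a ratio of 0.892 (0.834 to 0.953). Ogt, the glycosyltransferase that modifies Nfe2l1, had 119 CPM in AGNHW, 85.5 CPM in vehicle and 172 CPM in sham, a ratio of 0.497 for vehicle over sham (0.465 to 0.530), and Rngtt had a ratio of 0.607 (0.496 to 0.739). Corrected log2 ratios for vehicle over sham were 0.22 for Nfe2l1, 0.04 for Ddi2, 1.57 for Maff and 0.42 for Mafk. They were -0.19 for Mafg, -0.45 for Ogt and -0.20 for Rngtt. On corrected ratios, 2 of the 11 genes were higher and 1 lower by at least 1.2-fold, where 15.1% of all genes were higher and 16.1% lower.

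Among the ubiquitin genes, Ubb, a source of polyubiquitin, had 1573 CPM in AGNHW, 1743 CPM in vehicle and 1173 CPM in sham, with a ratio of 1.49 for vehicle over sham (1.46 to 1.51). Rps27a, which encodes ubiquitin fused to a ribosomal protein, had 137 CPM in AGNHW, 162 CPM in vehicle and 46.4 CPM in sham, a ratio of 3.50 for vehicle over sham (3.24 to 3.79); it has processed copies in the genome, so its count is uncertain. Of the 29 genes for ubiquitin and its activating and conjugating enzymes, 8 were higher and 9 lower by at least 1.2-fold for vehicle over sham, shares near the 25.1% and 26.2% of all genes. Vcp, the ATPase that hands ubiquitinated proteins to the proteasome, had 192 CPM in AGNHW, 205 CPM in vehicle and 182 CPM in sham, and the median of its list of 14 genes was 0.12 on the log2 scale as measured and 0.19 corrected.

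Other complexes of many subunits gave a measure of how particular the pattern was. For vehicle over sham, the translation initiation factor eIF3 (13 genes) had a median log2 ratio of 0.32 as measured and 0.14 corrected, with 8 genes higher and 2 lower by at least 1.2-fold. The COP9 signalosome (9 genes), whose subunits resemble those of the proteasome lid, had 0.28 as measured and 0.04 corrected, with 5 higher and 1 lower. The CCT chaperonin (8 genes) had 0.07 as measured and 0.14 corrected, with 1 higher and 0 lower. Of all genes, 25.1% were higher and 26.2% lower by at least 1.2-fold in this comparison. The members' median of 0.35 as measured and 0.13 corrected lay close to that of eIF3, and no test of the difference between lists was made.

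**Figure D4:**
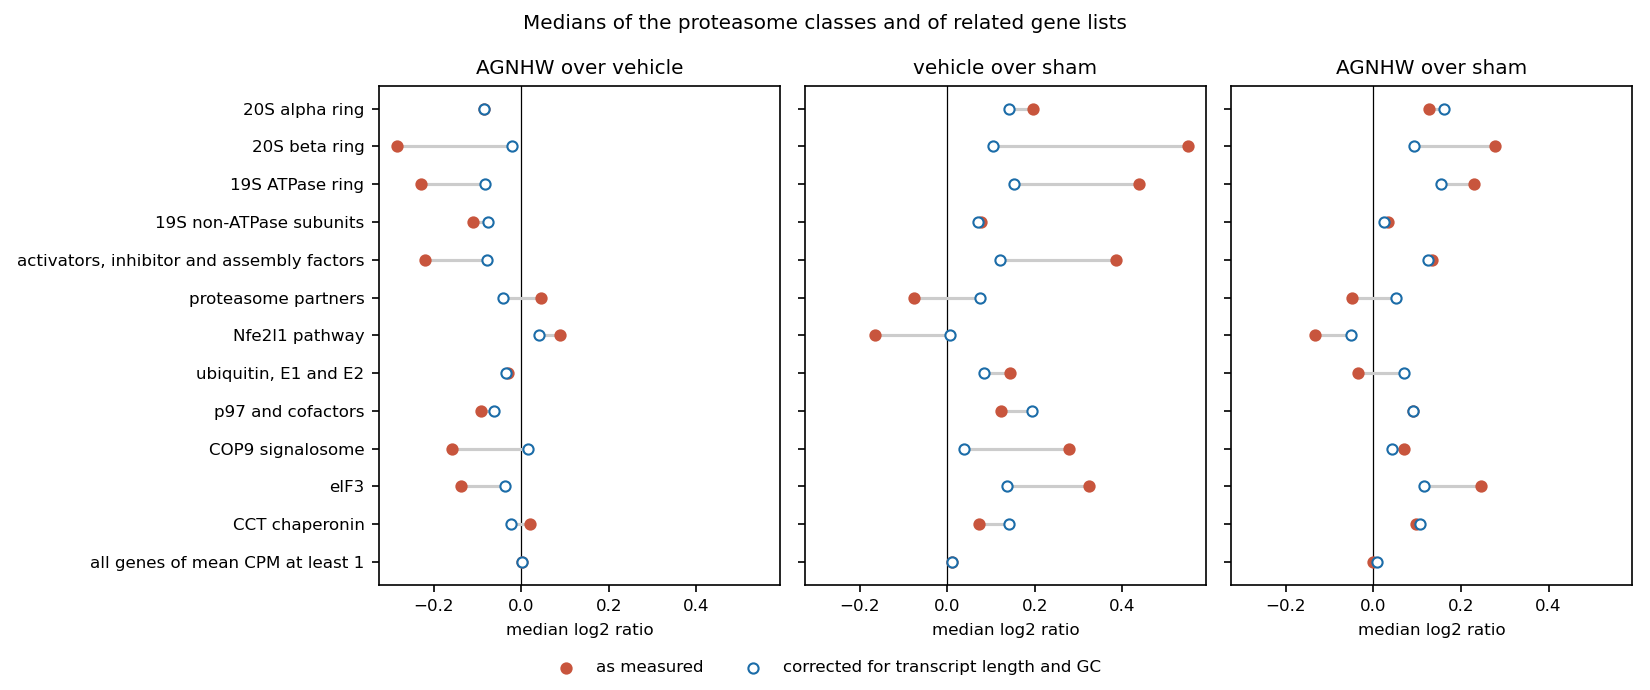
Median log2 ratio of each proteasome class, of related gene lists and of all genes with a mean of at least 1 CPM, as measured (filled) and corrected for transcript length and GC content (open), in the 3 comparisons. The beta ring moves from 0.55 to 0.11 for vehicle over sham, and eIF3 moves from 0.32 to 0.14.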

How the data were processed

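RNA taken up in TRIzol was run on an Illumina HiSeq instrument, per the series' design text. Each of the 3 deposited files lists raw counts of reads by gene symbol, which the authors had not normalised, and libraries were grouped by title. The submitters' processing notes name TopHat2 2.0.12, Bowtie2 2.2.3, HTSeq 0.6.0 and the build mm9; settings and strand are not given in the sources used. No gene had a sum under 21 over the libraries, so rarer genes are absent.

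The members and gene lists were chosen with earlier results of these data known. Any member could be named, and in other lists the best-known genes and the 3 with the largest absolute log2 ratio.

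Counts were scaled with TMM (edgeR 4.0.16, R 4.3.3; factors 1.00 for AGNHW, 0.968 for vehicle and 1.03 for sham). The size rule asked for a ratio of at least 1.5, a mean of at least 1 CPM (15558 genes) and a 95% exact conditional binomial interval that excluded 1. Without molecular identifiers, reads of one molecule can be counted repeatedly, so intervals may be too narrow. Log2 ratios used a prior count of 5. The correction took off a restricted cubic spline with 5 knots on log2 transcript length and on GC content, fitted on 10070 genes. Lengths came from GENCODE M21 principal transcripts (17790 genes matched by symbol, 221 of them by an older one) and promoters from RefSeq (GRCm38.p6, 40 of 48 members). These builds differ from mm9, so the coordinates printed are those of the promoter sequences, in GRCm38.p6, and belong to no position in the deposited files. Alternatives were plain CPM, DESeq2 1.42.0 size factors, no filter, a prior of 0.5, a fold of 1.2, the corrections, and leaving out the 3 genes that are not proteasome genes. Python 3.11.15 was used with scipy 1.17.1, pandas 2.3.3, numpy 2.4.6 and matplotlib 3.10.9.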

Additional observations from a re-analysis of the deposited data

How the results depend on the processing

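With 1 library per group, no library could be left out and no spread between animals could be estimated. No paired analysis was possible because each group had 1 library. DESeq2 size factors changed no count or class median past its tolerance. Dropping the filter on low counts could change nothing, since all members passed it. A prior count of 0.5 was applied to the medians only, and none moved past its tolerance. The 3 genes that are not proteasome genes passed the size rule in no comparison, so leaving them out could not change a count. Without them the median over the members stayed within its tolerance, and class medians were not recomputed. Plain CPM left 1 member higher at 1.5-fold for vehicle over sham and 0 for AGNHW over sham, gave an ATPase median of 0.35 for vehicle over sham, and turned the non-ATPase median round to -0.011 for vehicle over sham and -0.0027 for AGNHW over sham. At 1.2-fold, the higher and lower members numbered 1 and 14 (AGNHW over vehicle), 27 and 1 (vehicle over sham), and 11 and 1 (AGNHW over sham). The same fold on corrected ratios, a choice made after the data were seen, gave 1 and 4, 11 and 1, and 5 and 1. Correction for transcript length and GC content gave medians of -0.022 (beta) and -0.082 (ATPase) for AGNHW over vehicle; 0.13 (all members), 0.11 (beta), 0.15 (ATPase) and 0.12 (activators, inhibitor and assembly factors) for vehicle over sham, with 2 members higher; and 0.094 (beta) for AGNHW over sham, with 0 higher and 1 lower. Correction for coding length and GC content, also added later, gave -0.14 (beta) for AGNHW over vehicle; 0.30 (alpha), 0.28 (beta) and 0.26 (non-ATPase) for vehicle over sham; and 0.26 (alpha), 0.17 (beta) and 0 higher for AGNHW over sham. The cause of these shifts was not tested. Of 144 ratios of single members, 81 moved past their counting interval under the transcript correction, 10 under plain CPM and 0 under DESeq2 size factors. Plain CPM turned the side of 6 members for AGNHW over vehicle, 3 for vehicle over sham and 4 for AGNHW over sham; Psmd5 and Psmd6 were among these in each. Depth limits the genes of few counts: Psmg3, Psmg4, Psme2b, Psmc3ip and Psma5-ps have the widest intervals.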
